A study of Mus musculus with 9 samples.

Results

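The 50 genes described here encode proteins that carry a cell through mitosis. They comprise 9 kinases, cyclins and regulators of mitotic entry, 5 spindle checkpoint genes, 9 kinetochore genes, 3 genes of the chromosomal passenger complex, 9 kinesins, 6 spindle and cytokinesis genes, 6 chromosome structure genes and 3 genes of anaphase. They were chosen by gene symbol and are 50 of the 53647 genes in the deposited table. All 50 were found there, and all 50 had enough counts to be among the 13661 genes tested.

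mRNA libraries were sequenced from Hepa 1-6 cells, an established mouse hepatoma line, in 3 groups of 3 samples. The Usp5 knockout (sgUsp5) had been made with a lentiviral CRISPR plasmid carrying a Usp5 guide, the Ythdf1 knockout (sgYthdf1) with Ythdf1-specific CRISPR/Cas9 plasmids that also carry EGFP, and the control cells (sgControl) carried a control guide in a vector that is not given. Usp5 encodes a deubiquitinase that disassembles unanchored polyubiquitin, and Ythdf1 encodes a cytoplasmic reader of N6-methyladenosine in mRNA. The design text asks which genes respond alike to the loss of either protein, with an eye to immune genes, so the mitotic genes are a readout that the study did not name. No drug or other treatment is given for any group, and all were grown in the same medium. Knockout lines came from single-cell clones picked by dilution, several of which were tested by immunoblot. Which clone gave each sample is not given, so a change due to the knockout and a trait of a clone cannot be told apart. The labels do not say that the samples of a group came from separate cultures, and every p-value here therefore reflects sample-to-sample spread that could be purely technical.

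Mitosis begins when cyclin B bound to Cdk1, helped by Cdc25 phosphatases and by Polo-like and Aurora kinases, drives chromosome condensation and spindle assembly. Kinetochores join each chromosome to spindle microtubules, and the spindle checkpoint holds back the anaphase-promoting complex until every kinetochore is attached. Most of these genes are transcribed in G2 and M phase under the MuvB complex, B-Myb, Foxm1 and NF-Y, so their mRNA levels are widely used as a readout of proliferation in liver tumours. In bulk RNA, fewer dividing cells and less mitotic mRNA per cell cannot be told apart.

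The libraries held between 24760877 and 42989715 counts. Values below are CPM, counts scaled to a common library size by the TMM method. The Usp5 transcript stood at 123, 113 and 110.4 CPM in the Usp5 knockout and at 234, 224 and 184 CPM in the controls, so that about 54% remained. The Ythdf1 transcript stood at 49.2, 45.7 and 49.9 CPM in the Ythdf1 knockout and at 190.2, 181 and 195 CPM in the controls, 25.6% of control. Control replicate 3 stood apart from the other controls: counts of tested genes differed by a chi-square of 139 and 121 per degree of freedom between it and control replicates 1 and 2, against 14.7 between those replicates. No replicate pair of any group agreed within counting noise. Mitochondrial transcripts took 3.67%, 6.14% and 4.04% of counts in the Usp5 knockout, 3.9%, 4.96% and 3.51% in the Ythdf1 knockout and 2.33%, 2.32% and 5.91% in the controls, so that control replicate 3 lay among the knockout libraries and the other controls below them. The part of that share in the results was not tested. Hepatocyte markers, 9 of 10 of which were tested, summed to between 3259 and 3656 CPM in the Usp5 knockout, between 4152 and 4410 CPM in the Ythdf1 knockout and between 2712 and 2804 CPM in the controls, with 4 higher in the Usp5 knockout and 8 higher in the Ythdf1 knockout. Summed leukocyte markers lay between 3.50 and 5.07, 8.29 and 9.22, and 4.82 and 8.37 CPM in the Usp5 knockout, the Ythdf1 knockout and the controls, with Cd3e at 0 in every library. Of its 6 genes 2 were tested and neither was called against control, while Cd68 was lower in the Usp5 than in the Ythdf1 knockout (-0.98, adjusted p = 0.00499). Summed endothelial markers lay between 1.5 and 1.71, 1.77 and 2.63, and 1.49 and 1.53 CPM, with no call among 2 of 5 tested in any comparison. Stellate cell markers, 3 of 7 tested, summed to between 1083 and 1414, 1061 and 1289, and 855 and 1267 CPM, almost all of it decorin (Dcn), with Lrat at 0 in every library and Des lower in the Ythdf1 knockout (-1.46, adjusted p = 0.00149). The part of these markers in the results was not tested.

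Loss of Ythdf1 went with lower levels of most mitotic genes, whereas few of them were called after loss of Usp5. In the Ythdf1 knockout 33 of the 50 genes fell, 2 rose and 15 did not pass the test (edgeR quasi-likelihood test, with a gene called where its p, adjusted by Benjamini-Hochberg over all tested genes, was under 0.05). Over all 13661 tested genes 46.5% were called in that comparison, 22.8% lower and 23.7% higher. The median log2 fold change of the 50 genes was -0.50, beside 0.02 for all tested genes. In the Usp5 knockout 5 of the 50 genes rose, 0 fell and 45 did not pass. Over all tested genes 19.8% were called there, 9.96% higher and 9.8% lower. The share of mitotic genes that rose was thus near its background, and the share that fell lay below. Their median was 0.02, beside -0.01 for all tested genes, and with library sizes alone in place of TMM it was -0.06. Both comparisons use the same 3 control samples. Only Cdc25b was called in both, higher in the Usp5 knockout and lower in the Ythdf1 knockout, and 11 genes were called in neither.

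**Figure D1:**
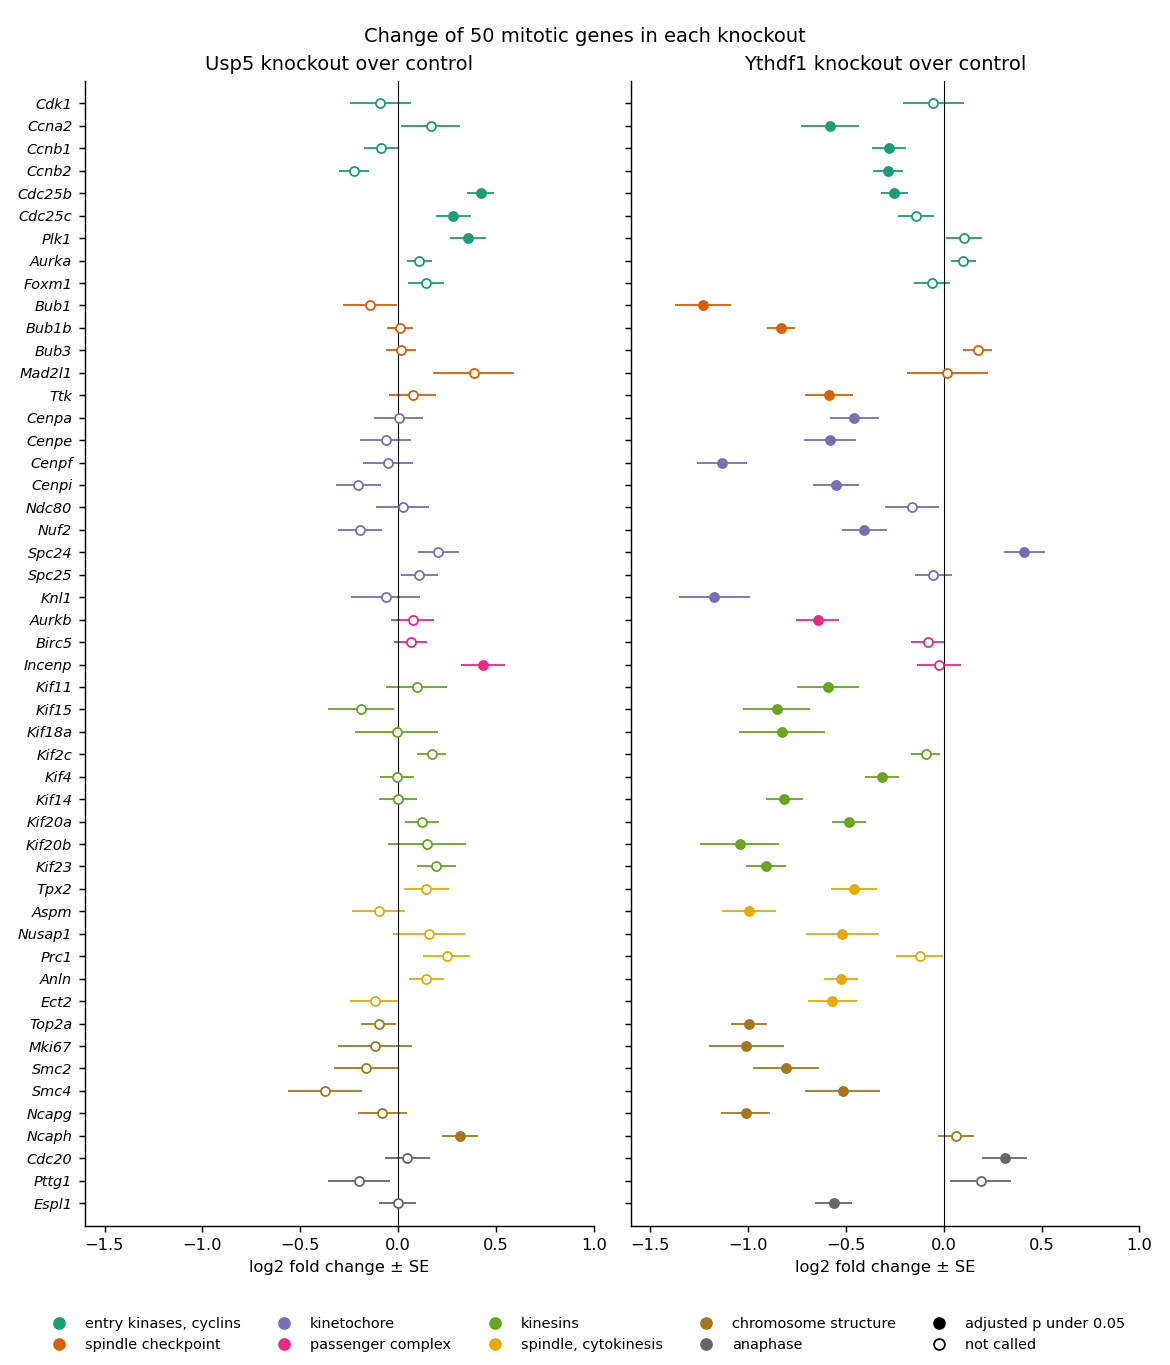
Log2 fold change with its standard error (x axis) of each of the 50 mitotic genes (rows, coloured by role) in the Usp5 knockout over control (left) and the Ythdf1 knockout over control (right); filled points passed at an adjusted p under 0.05. In the Ythdf1 knockout 33 points are filled and lie left of 0 and 2 lie right of it, and in the Usp5 knockout the 5 filled points all lie right of 0.

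The shift was present in every Ythdf1 knockout library. The median over the 50 genes of log2 CPM minus the mean of the controls was -0.01, 0.04 and 0.10 in the Usp5 knockout, -0.49, -0.36 and -0.54 in the Ythdf1 knockout and -0.13, -0.05 and 0.17 in the controls. All 3 Ythdf1 knockout libraries therefore lay below all 6 others, and Ythdf1 knockout replicate 2 was the nearest to them. Summed over the 50 genes, the level was 6157 ± 194 CPM in the Usp5 knockout, 4615 ± 121 CPM in the Ythdf1 knockout and 5910 ± 498 CPM in the controls (SD, n = 3). Without control replicate 3, the highest control, the Ythdf1 comparison gave 31 lower and 1 higher and a median of -0.37, beside 21.7% of all tested genes lower. The Usp5 comparison gave 11 called without that library, 10 higher and 1 lower, with a median of 0.10. Of all tested genes 31.2% were called there, 16.2% higher and 15% lower. The share of mitotic genes called higher was thus close to its background in that fit, and the share called lower lay below. The 7 genes then added were Mad2l1, Kif23, Tpx2, Nusap1, Prc1 and Foxm1, all higher, and Ccnb2, lower.

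**Figure D2:**
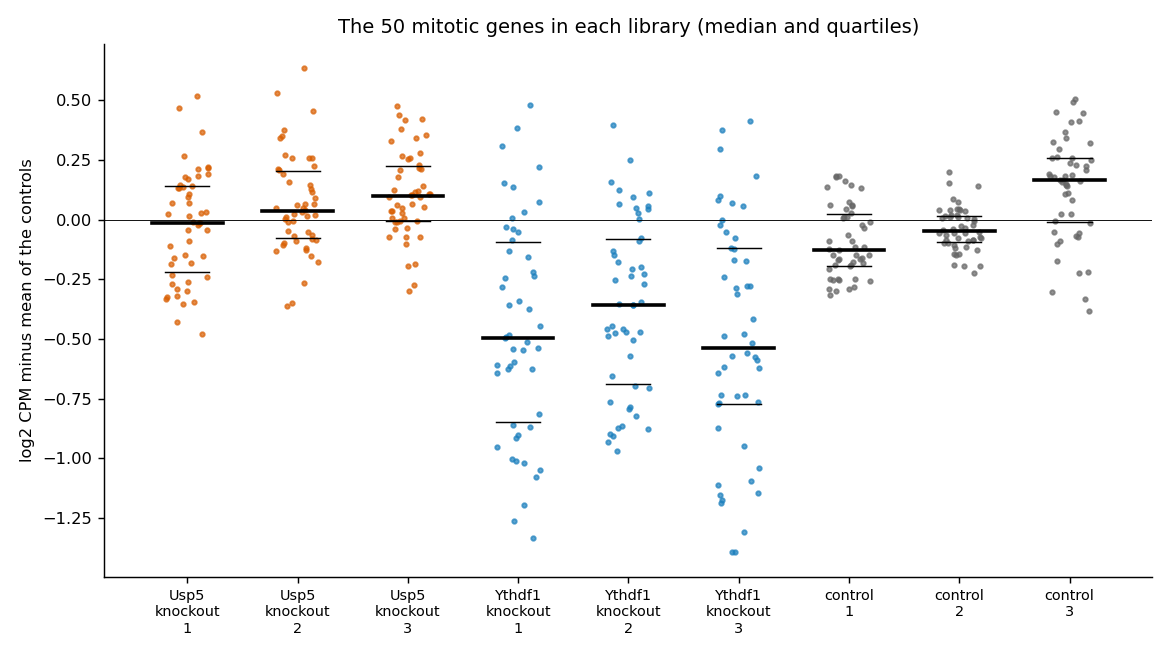
Log2 CPM minus the mean of the controls (y axis) for each of the 50 mitotic genes (points) in each of the 9 libraries (x axis), with the median as a thick line and the quartiles as thin lines. The medians of the Ythdf1 knockout libraries, -0.49, -0.36 and -0.54, lie below those of the other 6 libraries, and control replicate 3 has the highest median at 0.17.

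Promoters are shown for the 5 called genes of largest change whose window held a cell-cycle homology motif, because these genes fell together. Windows of 300 bases, from 250 before to 50 after the transcription start, were taken from RefSeq on GRCm38.p6 in the direction of the gene, while the counts were made on GRCm39. A window was found for 41 of the 50 genes. Capitals mark the searched motifs, each on either strand. These were TTTGAA and its variant TTCGAA, the core of the cell-cycle homology region bound by MuvB complexes, and the CCAAT box, which NF-Y binds and which is printed as ATTGG where it lies on the other strand. The second of these reads the same on both strands, and matches that overlap one another are all counted. The Bub1 window is chr2:127831810-127832109 on the minus strand, Knl1 chr2:119046869-119047168 on the plus strand, Cenpf chr1:189688037-189688336 on the minus strand, Kif20b chr19:34922108-34922407 on the plus strand and Ncapg chr5:45669675-45669974 on the plus strand.
Bub1: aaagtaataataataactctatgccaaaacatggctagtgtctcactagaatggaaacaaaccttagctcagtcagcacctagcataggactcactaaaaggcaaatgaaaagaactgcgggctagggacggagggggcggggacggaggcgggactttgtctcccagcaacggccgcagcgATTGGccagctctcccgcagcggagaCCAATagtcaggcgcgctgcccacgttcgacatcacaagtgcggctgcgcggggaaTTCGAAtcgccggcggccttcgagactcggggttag
Knl1: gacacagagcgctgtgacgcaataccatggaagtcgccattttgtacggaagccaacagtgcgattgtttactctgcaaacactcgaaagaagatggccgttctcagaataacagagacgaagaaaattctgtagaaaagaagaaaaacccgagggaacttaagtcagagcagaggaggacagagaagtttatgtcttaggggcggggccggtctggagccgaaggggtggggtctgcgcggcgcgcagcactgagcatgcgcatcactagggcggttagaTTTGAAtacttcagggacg
Cenpf: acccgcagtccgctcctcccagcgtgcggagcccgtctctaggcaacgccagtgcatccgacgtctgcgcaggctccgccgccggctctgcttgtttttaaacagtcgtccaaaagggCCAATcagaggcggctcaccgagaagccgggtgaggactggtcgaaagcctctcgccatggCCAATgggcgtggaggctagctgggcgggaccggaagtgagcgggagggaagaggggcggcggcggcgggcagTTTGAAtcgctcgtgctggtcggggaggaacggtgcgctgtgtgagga
Kif20b: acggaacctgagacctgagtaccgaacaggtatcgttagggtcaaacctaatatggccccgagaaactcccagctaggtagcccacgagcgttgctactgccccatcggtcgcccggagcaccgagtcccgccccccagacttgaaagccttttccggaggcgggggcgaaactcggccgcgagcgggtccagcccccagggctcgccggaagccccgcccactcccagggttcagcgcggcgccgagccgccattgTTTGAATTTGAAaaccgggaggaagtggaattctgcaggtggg
Ncapg: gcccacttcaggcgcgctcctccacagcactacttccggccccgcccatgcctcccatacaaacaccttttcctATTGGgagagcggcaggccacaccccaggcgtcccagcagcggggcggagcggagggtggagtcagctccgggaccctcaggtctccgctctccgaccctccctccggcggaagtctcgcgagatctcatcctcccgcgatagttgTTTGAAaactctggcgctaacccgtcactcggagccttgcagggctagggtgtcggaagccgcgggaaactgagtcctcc

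In Bub1, TTCGAA began 15 bases after the start site, with CCAAT boxes 68 and 42 bases before it. TTTGAA began 32 bases after the start of Knl1, 3 after that of Cenpf and 30 before that of Ncapg, and stood as a tandem repeat 8 and 14 bases after that of Kif20b. A gene was counted if any of its windows held the motif. TTTGAA or TTCGAA was present in 31 of 41 mitotic genes (75.6%), against 21.7% of the 27025 genes with a window. CCAAT was present in 28 (68.3%), against 41.1%, and both kinds of motif in 25 (61%), against 8.61%. Among genes that fell in the Ythdf1 knockout 22 of 28 held TTTGAA or TTCGAA (78.6%), and among those not called 8 of 12 did (66.7%). CCAAT was held by 21 of 28 (75%) and 6 of 12 (50%) of the same groups, and both kinds by 18 of 28 (64.3%) and 6 of 12 (50%). These differences between groups were not tested. A match is a description of these letters and not a binding site.

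Of the 9 genes of mitotic entry, 4 fell in the Ythdf1 knockout and 3 rose in the Usp5 knockout. Cdk1, the kinase that drives entry into mitosis, had 243, 208 and 199.8 CPM in the Usp5 knockout, 239, 193 and 237 CPM in the Ythdf1 knockout and 258, 261 and 174 CPM in the controls. The 3 groups overlapped, and the log2 fold changes were -0.09 ± 0.156 in the Usp5 knockout and -0.05 ± 0.156 in the Ythdf1 knockout (SE; adjusted p = 0.718 and 0.806). Its partner cyclin B1, Ccnb1, had 154, 169 and 188 CPM in the Usp5 knockout, 141, 158 and 148 CPM in the Ythdf1 knockout and 185, 186 and 173 CPM in the controls. The Ythdf1 knockout and control values did not overlap, and that log2 fold change was -0.28 ± 0.088 (SE; adjusted p = 0.024). That call ended without Ythdf1 knockout replicate 1 (-0.27, adjusted p = 0.079) or 3 (-0.31, 0.0606) and without control replicate 1 (-0.27, 0.0646) or 2 (-0.26, 0.0723). Cyclin A2 (Ccna2), which acts in S phase and G2, fell by 0.58 and cyclin B2 (Ccnb2) fell by 0.29 in the Ythdf1 knockout.

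Cdc25b, a phosphatase that activates Cdk1 at the onset of mitosis, had 84.0, 78.7 and 81.4 CPM in the Usp5 knockout, 49.9, 51.8 and 51.4 CPM in the Ythdf1 knockout and 62.6, 61.3 and 58.4 CPM in the controls. The 3 groups were apart, with the Usp5 knockout highest and the Ythdf1 knockout lowest. The log2 fold change was 0.42 ± 0.0672 in the Usp5 knockout and -0.25 ± 0.0675 in the Ythdf1 knockout (SE; adjusted p = 0.00173 and 0.0116). Its relative Cdc25c had 16.5, 15.9 and 17.9 CPM in the Usp5 knockout, 12.3, 12.9 and 12.2 CPM in the Ythdf1 knockout and 14.3, 14.2 and 12.8 CPM in the controls, a log2 fold change in the Usp5 knockout of 0.28 ± 0.0896 (SE; adjusted p = 0.0499). That call ended without any one of the 9 libraries, at adjusted p between 0.0752 and 0.116. Plk1, the Polo-like kinase of entry, spindle and cytokinesis, had 267, 284 and 247 CPM in the Usp5 knockout, 230.1, 221 and 219 CPM in the Ythdf1 knockout and 205, 187 and 231 CPM in the controls. Plk1 rose by 0.36 ± 0.0919 in the Usp5 knockout (SE; adjusted p = 0.0223), and its value of 0.10 in the Ythdf1 knockout did not pass (adjusted p = 0.376). Without Usp5 knockout replicate 1 or 2, or control replicate 1 or 2, the call for Plk1 ended at adjusted p between 0.0502 and 0.096. Foxm1, the transcription factor of many mitotic genes, had 249, 271 and 249.6 CPM in the Usp5 knockout, 227, 219.7 and 224 CPM in the Ythdf1 knockout and 226, 209.5 and 263 CPM in the controls. Neither Foxm1 nor the centrosomal kinase gene Aurka passed in either knockout, at -0.06 and 0.10 in the Ythdf1 knockout and 0.14 and 0.11 in the Usp5 knockout.

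Among the 5 spindle checkpoint genes, Bub1, Bub1b and Ttk fell in the Ythdf1 knockout, and none was called in the Usp5 knockout. Bub1, a kinase that marks centromeres and recruits checkpoint proteins, had 30.7, 36.4 and 38.4 CPM in the Usp5 knockout, 15.3, 19.8 and 14.7 CPM in the Ythdf1 knockout and 33.6, 39.8 and 43.4 CPM in the controls. Every Ythdf1 knockout library lay below every other library. With a log2 fold change of -1.23 ± 0.143 (SE; adjusted p = 0.000114), Bub1 fell furthest of the 50 genes, to 42.7% of control. Bub1b, which encodes the checkpoint protein BubR1, had 71.5, 69.8 and 77.9 CPM in the Ythdf1 knockout and 131, 130.1 and 129 CPM in the controls, a log2 fold change of -0.83 ± 0.0697 (SE; adjusted p = 1.91e-05). Ttk, the kinase Mps1 that starts checkpoint signalling, fell by 0.59. Mad2l1, the Mad2 protein that inhibits Cdc20, had 140.5, 163 and 127 CPM in the Ythdf1 knockout and 113, 118 and 195 CPM in the controls. The control range enclosed the knockout values, and the log2 fold change was 0.02 ± 0.206 (SE; adjusted p = 0.951). Bub3, which brings Bub1 and BubR1 to kinetochores, did not pass either, at 0.17 (adjusted p = 0.0834).

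In the Usp5 knockout Mad2l1 had 152, 213 and 191 CPM, at a log2 fold change of 0.39 ± 0.206 (SE; adjusted p = 0.216). Without control replicate 3, which held 195 CPM, that value was 0.68 and passed (adjusted p = 0.00576).

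Of the 9 kinetochore genes, 6 fell in the Ythdf1 knockout, 1 rose and 2 did not pass, and none was called in the Usp5 knockout. Knl1, the large scaffold that docks Bub1 and Bub3, had 25.3, 31.5 and 33.8 CPM in the Usp5 knockout, 13.5, 16.6 and 11.8 CPM in the Ythdf1 knockout and 26.0, 29.4 and 39.5 CPM in the controls. Its log2 fold change in the Ythdf1 knockout was -1.17 ± 0.181 (SE; adjusted p = 0.000554). Cenpf, a microtubule-binding protein of the outer kinetochore, had 66.3, 75.6 and 78.1 CPM in the Usp5 knockout, 31.4, 39.5 and 33.1 CPM in the Ythdf1 knockout and 68.1, 70.4 and 89.6 CPM in the controls. Its log2 fold change was -1.13 ± 0.129 (SE; adjusted p = 0.000101). For both genes the Ythdf1 knockout libraries lay below all others, and the Usp5 knockout and control libraries overlapped.

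The motor Cenpe fell by 0.58, the inner kinetochore protein Cenpi by 0.55 and the centromeric histone H3 variant Cenpa by 0.46 in the Ythdf1 knockout. Without control replicate 2 the call for Cenpa ended (-0.39, adjusted p = 0.0535). The Ndc80 complex, the main microtubule coupler, has 4 subunits. Ndc80 had 29.0, 35.4 and 35.1 CPM in the Usp5 knockout, 27.4, 33.5 and 26.7 CPM in the Ythdf1 knockout and 27.3, 33.4 and 37.4 CPM in the controls, and its log2 fold change in the Ythdf1 knockout of -0.16 ± 0.138 did not pass (SE; adjusted p = 0.365). Nuf2 fell by 0.41, Spc25 did not pass at -0.05, and Spc24 had 23.1, 25.4 and 20.8 CPM in the Usp5 knockout, 27.8, 26.3 and 25.9 CPM in the Ythdf1 knockout and 22.6, 18.5 and 18.9 CPM in the controls. In the Ythdf1 knockout Spc24 rose by 0.41 ± 0.105 (SE; adjusted p = 0.00911), a call that ended without Ythdf1 knockout replicate 1 (0.35, adjusted p = 0.0546) and after a correction for gene length (0.22, adjusted p = 0.0818). After correction for GC and length none of the 4 was called, with Ndc80 at 0.08, Nuf2 at -0.12, Spc24 at 0.06 and Spc25 at 0.08.

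The chromosomal passenger complex corrects faulty attachments and guides cytokinesis. Its kinase gene Aurkb had 109, 96.9 and 97.2 CPM in the Usp5 knockout, 65.5, 54.9 and 63.9 CPM in the Ythdf1 knockout and 105, 101 and 81.7 CPM in the controls. Aurkb was lower in all 3 Ythdf1 knockout libraries than in any other, at a log2 fold change of -0.64 ± 0.11 (SE; adjusted p = 0.00102). Birc5, which encodes survivin, had 119, 105 and 97.6 CPM in the Usp5 knockout, 99.9, 93.6 and 97.3 CPM in the Ythdf1 knockout and 103, 101 and 104 CPM in the controls, and its value of -0.08 in the Ythdf1 knockout did not pass (adjusted p = 0.436). Incenp, the scaffold of the complex, had 328, 331 and 276 CPM in the Usp5 knockout, 221, 234 and 226 CPM in the Ythdf1 knockout and 216, 207 and 271 CPM in the controls. Incenp rose by 0.43 ± 0.113 in the Usp5 knockout (SE; adjusted p = 0.0236), and without Usp5 knockout replicate 1 or 2, or control replicate 1 or 2, that call ended at adjusted p between 0.0655 and 0.101. Its value in the Ythdf1 knockout was -0.03 (adjusted p = 0.87). Against control, Aurkb was thus called in the Ythdf1 knockout alone, Incenp in the Usp5 knockout alone and Birc5 in neither. Differences between the 3 genes were not tested. Between the knockouts, Aurkb and Incenp were both higher in the Usp5 knockout, by 0.72 and 0.46, and Birc5 did not pass.

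Of 9 kinesins, 8 fell in the Ythdf1 knockout and none was called in the Usp5 knockout. Kif11, the motor that pushes spindle poles apart, had 118, 131 and 158 CPM in the Usp5 knockout, 80.5, 98.1 and 73.9 CPM in the Ythdf1 knockout and 106, 122 and 154 CPM in the controls, a log2 fold change in the Ythdf1 knockout of -0.59 ± 0.159 (SE; adjusted p = 0.0117). Kif20b, a kinesin of late cytokinesis, had 69.9, 85.2 and 85.6 CPM in the Usp5 knockout, 33.5, 43.3 and 28.5 CPM in the Ythdf1 knockout and 59.2, 61.7 and 96.4 CPM in the controls. Kif20b fell by 1.04 ± 0.203 in the Ythdf1 knockout (SE; adjusted p = 0.00213), and by 0.79 without control replicate 3, its highest control. Kif23, a subunit of the centralspindlin complex of the midzone, had 94.5, 102 and 99.4 CPM in the Usp5 knockout, 44.4, 46.7 and 46.8 CPM in the Ythdf1 knockout and 76.5, 82.1 and 101 CPM in the controls. The 3 Ythdf1 knockout values lay close together and far below the rest, at a log2 fold change of -0.91 ± 0.101 (SE; adjusted p = 8.55e-05). The others that fell were Kif15 (-0.85), Kif18a (-0.83), Kif14 (-0.81), Kif20a (-0.49) and Kif4 (-0.32). Kif2c, a microtubule depolymerase that corrects attachments, was the exception at -0.09 (adjusted p = 0.328).

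Among spindle and cytokinesis genes, 5 of 6 fell in the Ythdf1 knockout and none was called in the Usp5 knockout. The spindle pole protein gene Aspm fell furthest, by 0.99, followed by Ect2 (-0.57), which activates RhoA at the cleavage furrow, Anln (-0.52), Nusap1 (-0.52) and the Aurora A activator Tpx2 (-0.46). Nusap1 lost its call without Ythdf1 knockout replicate 1 (-0.48, adjusted p = 0.112) or 3 (-0.50, 0.104) and without control replicate 3 (-0.26, 0.115). Prc1, the bundler of midzone microtubules, did not pass at -0.12 (adjusted p = 0.429).

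**Figure D3:**
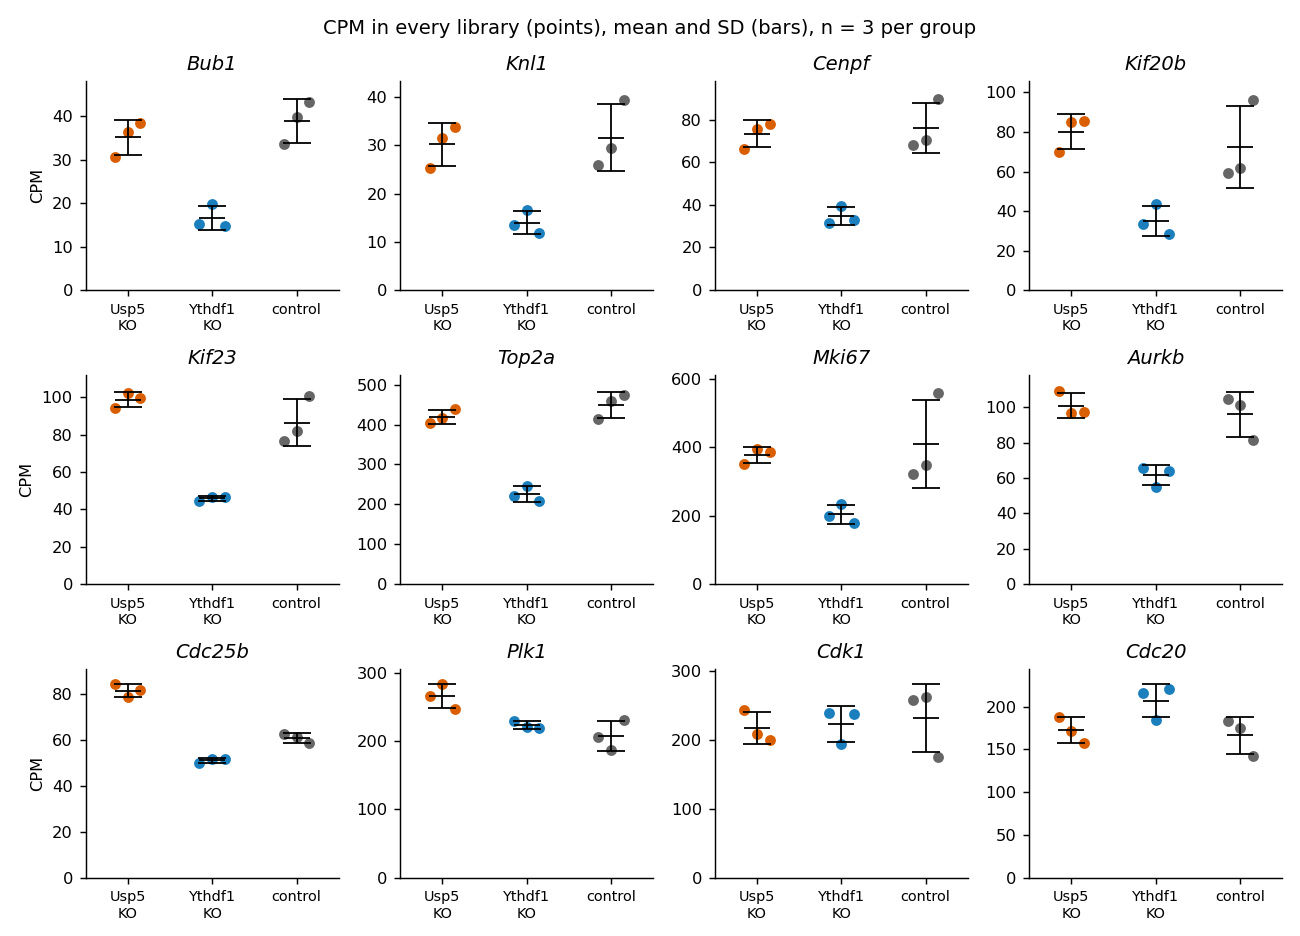
CPM (y axes, from 0) of 12 mitotic genes in every library of the Usp5 knockout, the Ythdf1 knockout and the controls (x axis, left to right), as points, with the mean and SD of each group as bars (n = 3). Bub1, Knl1, Cenpf, Kif20b, Kif23, Top2a, Mki67 and Aurkb are lowest in all 3 Ythdf1 knockout libraries, Cdc25b separates all 3 groups, and Cdk1 overlaps among them.

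Chromosome structure genes showed the lowest median by role among the roles above, -0.90, with 5 of 6 falling in the Ythdf1 knockout. Top2a, the topoisomerase that untangles sister chromatids, had 404, 417 and 439 CPM in the Usp5 knockout, 222, 247 and 208 CPM in the Ythdf1 knockout and 414, 459 and 475 CPM in the controls. Its level was 50.1% of control in the Ythdf1 knockout, a log2 fold change of -1.0 ± 0.0911 (SE; adjusted p = 2.94e-05). Mki67, which encodes the proliferation marker Ki-67 that coats mitotic chromosomes, had 349, 394 and 386 CPM in the Usp5 knockout, 197, 234 and 178 CPM in the Ythdf1 knockout and 322, 347 and 557 CPM in the controls. Control replicate 3 was far above the other controls, and the log2 fold change was -1.01 ± 0.19 with it (SE; adjusted p = 0.00178) and -0.72 without it (adjusted p = 0.000546). Of the condensin subunits, Ncapg had 33.7, 38.6 and 43.1 CPM in the Usp5 knockout, 20.1, 22.1 and 18.3 CPM in the Ythdf1 knockout and 35.3, 40.8 and 46.0 CPM in the controls, a log2 fold change in the Ythdf1 knockout of -1.01 ± 0.127 (SE; adjusted p = 0.000173). Smc2 fell by 0.81, and Smc4, its partner, by 0.52 with overlapping groups (adjusted p = 0.0462). The call for Smc4 ended without any of 6 libraries, at adjusted p between 0.0519 and 0.15; these were Usp5 knockout replicates 2 and 3, Ythdf1 knockout replicates 1 and 3 and control replicates 2 and 3. Ncaph had 86.1, 96.9 and 104 CPM in the Usp5 knockout, 76.8, 83.3 and 80.4 CPM in the Ythdf1 knockout and 73.2, 72.1 and 84.9 CPM in the controls. Ncaph rose by 0.32 ± 0.0926 in the Usp5 knockout (SE; adjusted p = 0.037) and stood at 0.06 in the Ythdf1 knockout (adjusted p = 0.596). Among the 9 fits with 1 library left out, that rise kept its call without Usp5 knockout replicate 1 and without control replicate 3, and had adjusted p between 0.0545 and 0.15 in the other 7.

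The 3 anaphase genes went separate ways in the Ythdf1 knockout. Cdc20, the activator of the anaphase-promoting complex, had 188, 171 and 158 CPM in the Usp5 knockout, 216, 185 and 220.5 CPM in the Ythdf1 knockout and 183, 175 and 142 CPM in the controls. Cdc20 rose by 0.31 ± 0.115 in the Ythdf1 knockout (SE; adjusted p = 0.0461), but that call ended in 6 of 9 fits with 1 library left out (adjusted p between 0.0702 and 0.204) and after the length correction (0.21, adjusted p = 0.117). The 6 were those without Usp5 knockout replicates 1 and 2, Ythdf1 knockout replicates 1 and 3 and control replicates 2 and 3. Espl1, the separase that cuts cohesin, fell by 0.56. Its call also ended after the length correction (-0.33, adjusted p = 0.0544), but it was kept after GC and length correction (-0.59, adjusted p = 0.000287). Its inhibitor securin, Pttg1, did not pass at 0.19 (adjusted p = 0.35).

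The knockouts were also compared with each other in the same fit, which tests the difference between them. Of the 50 genes, 35 were higher in the Usp5 knockout than in the Ythdf1 knockout, 0 were lower and 15 did not pass; over all tested genes 48.5% were called, 23.3% higher and 25.2% lower. The median log2 fold change of Usp5 knockout over Ythdf1 knockout was 0.49, beside 0.00 for all tested genes. All 9 kinesins and all 6 spindle and cytokinesis genes were called, though not under every alternative. Kif4 lost the call after the length correction (0.14, adjusted p = 0.129) and stood at -0.0043 after GC and length correction. Prc1 (0.20, adjusted p = 0.0613) and Ect2 (0.13, adjusted p = 0.105) lost it after GC and length correction, Prc1 also without Usp5 knockout replicate 3 or Ythdf1 knockout replicate 1 or 3, and Ect2 without Usp5 knockout replicate 3. The largest differences were those of Kif20b at 1.19 ± 0.204, Knl1 at 1.11 ± 0.181, Kif23 at 1.10 ± 0.101, Bub1 at 1.08 ± 0.143, Cenpf at 1.08 ± 0.129 and Ncapg at 0.93 ± 0.127 (SE; adjusted p = 0.000941, 0.000712, 2.01e-05, 0.000191, 0.000102 and 0.000238). In each of these 6 genes all 3 Usp5 knockout libraries lay above all 3 Ythdf1 knockout libraries. The same held for 37 of the 50 genes and for 28.6% of all tested genes. The reverse held for 2 of the 50 and for 30.4% of all tested genes. Cdk1, Ccnb1, Ccnb2, Aurka, Foxm1, Bub3, Mad2l1, Ndc80, Nuf2, Spc24, Spc25, Birc5, Smc4, Cdc20 and Pttg1 did not pass.

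Longer mitotic genes had the lower values in the Ythdf1 knockout. Spearman's correlation between log2 fold change in the Ythdf1 knockout and the length in the deposited table was -0.28 across the 13661 tested genes and -0.70 across the 50 mitotic genes. These are descriptions over genes, which share their libraries and are not replicates. In the Usp5 knockout the values were -0.07 and -0.27. With tested genes in 5 bins of equal number, all 14 mitotic genes longer than 3997 bases fell in the Ythdf1 knockout, as did 11 of 13 between 2836 and 3997 bases, 4 of 10 between 2031 and 2836, 3 of 8 between 1363 and 2031 and 1 of 5 below 1363. Among all tested genes the shares called lower, from the longest bin to the shortest, were 40.6%, 30.6%, 22.3%, 13.8% and 6.92%. Mitotic gene medians ran -0.83, -0.55, -0.14, -0.10 and -0.05 from the longest bin to the shortest, beside -0.22, -0.10, 0.02, 0.12 and 0.27 for all tested genes. Every bin held fewer than 20 mitotic genes. The mitotic genes were longer than tested genes, with a median of 2907 against 2419 bases, and poorer in GC, at 45.7% against 50.5%.

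**Figure D4:**
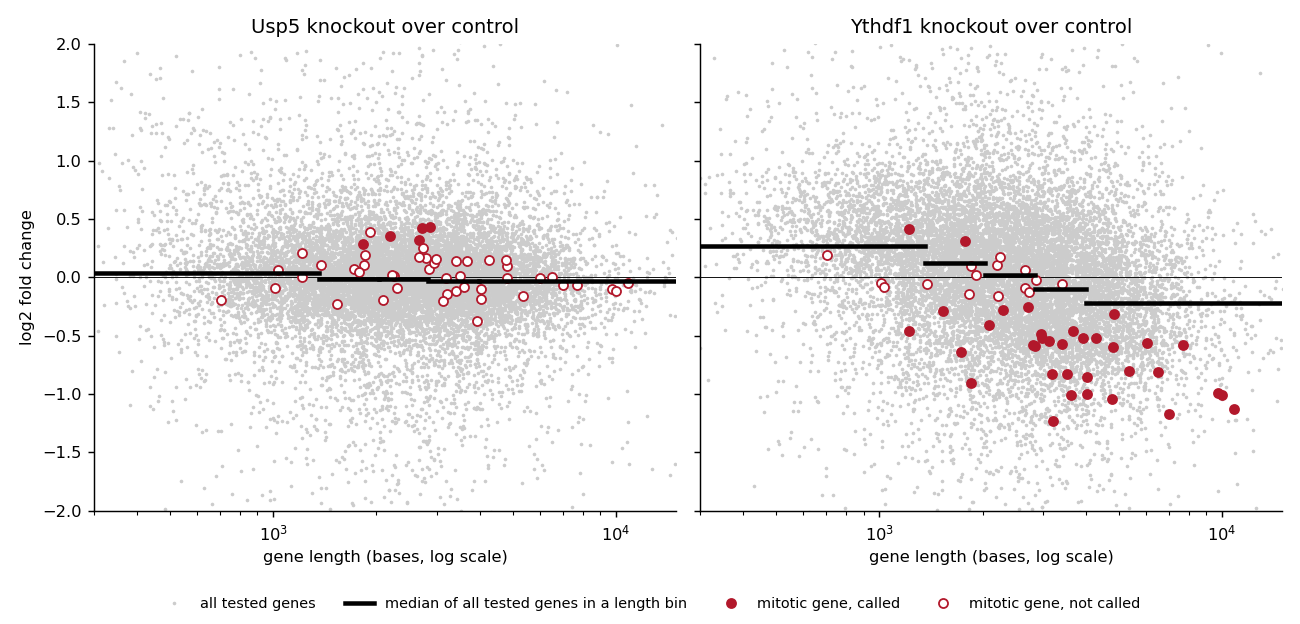
Log2 fold change (y axis) against gene length in bases (log x axis), both axes trimmed so that a few extreme genes lie outside, for all tested genes (grey) and the 50 mitotic genes (red, filled if called), in the Usp5 knockout over control (left) and the Ythdf1 knockout over control (right), with the median of all tested genes in each of 5 length bins as black lines. In the Ythdf1 knockout the bin medians run from 0.27 for the shortest genes to -0.22 for the longest, and the mitotic genes of the longest bin have a median of -0.83.

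Trends with length and GC also differed between libraries of the same group. The correlation of a library's deviation from the mean of all libraries with gene length was -0.08, 0.11 and 0.29 in the Usp5 knockout, -0.31, -0.15 and -0.28 in the Ythdf1 knockout and 0.06, 0.13 and 0.31 in the controls. Control replicate 3 thus had the highest value of the 9 libraries, and the Ythdf1 knockout libraries the 3 lowest. With GC content the correlations were 0.11, -0.16 and -0.36, 0.41, 0.17 and 0.43, and -0.03, -0.24 and -0.50 in the same order of groups. Whether these trends arose in library preparation or in the cells was not tested.

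The fits were therefore repeated with smooth trends of each library removed. After removal of the length trend, 30 mitotic genes fell in the Ythdf1 knockout and 0 rose, 29 of the 33 kept their call, and the median was -0.39, while 21.4% of all tested genes were lower. After removal of GC and length trends together, 24 fell and 1, Bub3, rose; 23 of the 33 kept their call and the median was -0.20, while 20.4% of all tested genes were lower. Genes that lost the call were Ccnb1, Cenpe, Nuf2, Kif11, Kif18a, Kif4, Nusap1, Anln, Ect2 and Smc4. Kif4 and Smc4 turned to 0.06 and 0.05. Bub1 was then at -0.77, Kif23 at -0.78, Cenpf at -0.69, Mki67 at -0.64, Top2a at -0.61 and Bub1b at -0.58, each still called. Knl1 fell by 0.55 in place of 1.17, Kif20b by 0.42 in place of 1.04 and Ncapg by 0.42 in place of 1.01. Some values moved the other way, among them those of Aurkb and Cenpa, at 53.6% and 53% GC. Aurkb stood at -0.87 and Cenpa at -0.72 after the correction, beside -0.64 and -0.46 before it. Cdc25b stood at -0.39 beside -0.25, and Espl1 at -0.59 beside -0.56. Birc5 was called at -0.23 (adjusted p = 0.0133). In the Usp5 knockout 9 genes were then called, 8 higher and 1 lower. Of all tested genes 25.4% were called there, 12.7% higher and 12.8% lower. Kif20b, Kif23, Prc1 and Anln were added among the higher mitotic genes, Ccnb2 was the lower one, and Plk1 was lost (0.31, adjusted p = 0.0528).

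**Figure D5:**
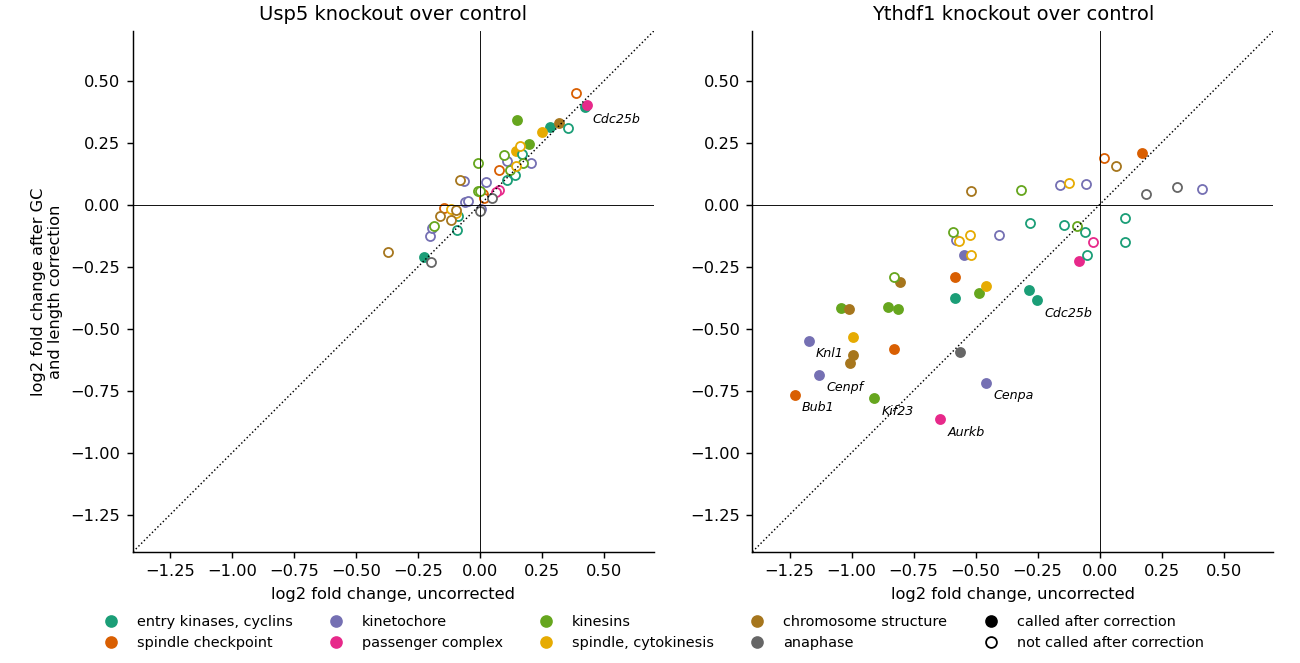
Log2 fold change after a correction for GC content and gene length (y axis) against the uncorrected value (x axis) for the 50 mitotic genes, in the Usp5 knockout over control (left) and the Ythdf1 knockout over control (right), coloured by role and filled where called after correction; the dotted line marks equal values. In the Ythdf1 knockout most genes lie above the line, as Bub1 at -0.77 beside -1.23. Others lie below it, among them Aurkb, Cenpa, Cdc25b and Espl1.

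Over all 20 alternatives run, 21 of the 33 genes that fell in the Ythdf1 knockout were called lower each time: Ccna2, Ccnb2, Cdc25b, Bub1, Bub1b, Ttk, Cenpf, Cenpi, Knl1, Aurkb, Kif14, Kif15, Kif20a, Kif20b, Kif23, Tpx2, Aspm, Top2a, Mki67, Smc2 and Ncapg. Every role but anaphase is represented among them. Of the 5 genes that rose in the Usp5 knockout, Cdc25b alone kept its call in all 20. Of the 35 that were higher in the Usp5 knockout than in the Ythdf1 knockout, 28 kept it. The matching shares over all called genes are not given here, so these counts describe the mitotic genes alone.

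Levels between genes were compared as CPM per kilobase of length. In the controls Cdk1 was highest at 228 ± 48.6, followed by Pttg1 at 184 ± 34.4, Bub3 at 120 ± 4.8 and Top2a at 111 ± 7.91 CPM per kilobase (SD, n = 3). Cdk1 and Pttg1 differed by less than their SD combined, as did Bub3 and Top2a. Knl1 was lowest at 4.52 ± 1.00, below Kif18a at 5.06 ± 1.35 and Kif14 at 5.25 ± 0.471 CPM per kilobase, and these 3 were within their SD of each other. Top2a stood at 55.8 CPM per kilobase in the Ythdf1 knockout, below Cdc20 at 116.5 and Plk1 at 102, and at 111 CPM per kilobase in the controls, above Cdc20 at 93.8 and Plk1 at 94.6.

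Genes of the same processes that are not among the 50 were read from 7 lists, in which 152 genes were tested. Of these, 61 fell and 23 rose in the Ythdf1 knockout, with a median log2 fold change of -0.18, and 3 fell and 12 rose in the Usp5 knockout, with a median of 0.05. Like the 50 genes, these lists were written with earlier results of the same libraries known. These counts stand beside 22.8% of all tested genes lower and 23.7% higher in the Ythdf1 knockout. The shares in the Usp5 knockout were 9.8% lower and 9.96% higher. All values for these lists come from the fit without length or GC correction. In the Ythdf1 knockout that fit called 40.6% of all tested genes lower in the longest length bin and 6.92% in the shortest. The part of length and GC in the list counts was not tested. Of other condensin and cohesin genes, 12 of 15 fell in the Ythdf1 knockout and 0 rose, with a median of -0.53. Among them the condensin II subunit Ncapg2 fell by 0.86, the cohesin subunit Stag2 by 0.83 and the cohesin kleisin Rad21 by 0.73. None of the 15 was called in the Usp5 knockout. Other mitotic regulators fell in 11 of 19 and rose in 1, with Depdc1a at -1.27 and Fbxo5, which encodes the anaphase-promoting complex inhibitor Emi1, at -0.71. The 1 that rose was Pkmyt1, at 0.32, and it also rose in the Usp5 knockout, by 0.29. Other spindle, centrosome and cytokinesis genes fell in 16 of 38 and rose in 6. The centriole duplication genes Cep152 and Plk4 fell by 1.15 and 0.86, while Haus8 and Psrc1 rose by 0.58 and 0.51. Other kinetochore and centromere genes fell in 11 of 33 and rose in 5, with Spdl1, which recruits dynein to kinetochores, at -0.94. Mad1l1 and Pmf1 rose by 0.49 and 0.39, and they also rose in the Usp5 knockout, by 0.44 and 0.35.

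Of 17 anaphase-promoting complex genes, 3 were lower and 5 higher in the Ythdf1 knockout, near the 22.8% and 23.7% of all tested genes. Anapc4 fell by 1.03 ± 0.0945 (SE; adjusted p = 2.94e-05), while Anapc10 rose by 0.88 and Anapc11, the RING subunit of the complex, by 0.75 ± 0.083 (SE; adjusted p = 8.65e-05). Anapc11 was the 1 gene of the 17 called in the Usp5 knockout, at 0.94 ± 0.0831 (SE; adjusted p = 3.93e-05). It had 83.0, 81.9 and 78.2 CPM in the Usp5 knockout, 72.9, 68.6 and 71.7 CPM in the Ythdf1 knockout and 42.9, 38.0 and 46.0 CPM in the controls. All 6 knockout libraries lay above all 3 controls. Of 18 replication and licensing genes, 6 were lower and 5 higher in the Ythdf1 knockout, also near those background shares, and their median was 0.10. Tk1 fell by 0.58 and Mcm7 rose by 0.53. Of 12 inhibitors of cyclin-dependent kinases, pocket proteins and E2F factors, 2 fell and 1 rose. Cdkn1a, the p21 inhibitor, had 161, 153 and 152 CPM in the Usp5 knockout, 329.5, 326 and 335 CPM in the Ythdf1 knockout and 173, 168 and 209 CPM in the controls. The Ythdf1 knockout libraries lay above all others, at a log2 fold change of 0.85 ± 0.0913 (SE; adjusted p = 7.34e-05), and the Usp5 knockout value of -0.24 did not pass (adjusted p = 0.0897). Cdkn2c, the p18 inhibitor, fell in each knockout, by 0.94 in the Usp5 knockout and by 0.87 in the Ythdf1 knockout, and the pocket protein gene Rbl1 fell by 0.81 in the Ythdf1 knockout.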

How the data were processed

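The samples were grouped by their labels, 3 per group. The deposited table holds estimated counts per gene, with a length in bases for each, which the authors made by a route not given in the sources used here; per the submitters' processing notes the tools were fastp 0.23.2, STAR 2.7.10a and Salmon 1.9.0 and the build GRCm39, with no roles stated. How the authors defined that length, and whether counting used strand, is not given, so overlapping genes and close copies are uncertain.

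The deposited counts were analysed in R 4.3.3 with edgeR 4.0.16. After filterByExpr and TMM scaling, a quasi-likelihood test was fitted over all 9 samples with group as the only term. It gave 3 contrasts, with Benjamini-Hochberg adjustment over 13661 genes, called under 0.05. Every adjusted p in the text comes from that test unless an alternative is named. SE is the absolute log2 fold change over the root of the test's F. All 50 members were in all 3 contrasts, and the members and lists were chosen with earlier results of these data known. Members given in full were the up to 6 called genes with the largest rise and fall in each contrast and 12 genes set by role (Cdk1, Ccnb1, Plk1, Mad2l1, Ndc80, Aurkb, Kif11, Top2a, Mki67, Foxm1, Cdc20 and Birc5); related genes are named up to 2 per list and direction, and a few others were chosen after their values were seen. One gene that this rule names is not reported here. Length and GC trends of each library were smoothed by lowess (span 0.5, 10 backfitting passes) and entered as offsets. The correction for GC and length together was added after the data were seen. GC was known for 13642 genes (99.9%), as the mean over each gene's transcripts in the GENCODE reference. Alternatives used DESeq2 1.42.0, limma-voom (limma 3.58.1), other scalings and filters, only the groups compared, a replicate block and each library left out. The procedure was tested on simulated data.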

Additional observations from a re-analysis of the deposited data

Results flagged for a closer look

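Cdc25b is listed because it was called in opposite directions in the knockouts and the difference between them passed its own test, a test that 35 of the 50 genes passed. It was higher in all 3 Usp5 knockout libraries than in any Ythdf1 knockout library, with a log2 fold change of 0.67 ± 0.0677 for the Usp5 knockout over the Ythdf1 knockout (SE; adjusted p = 3.62e-05). Against the shared controls its values were 0.42 in the Usp5 knockout and -0.25 in the Ythdf1 knockout.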

How the results depend on the processing

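With library sizes alone in place of TMM, the median log2 fold change of the mitotic genes was -0.063 in the Usp5 knockout and -0.64 in the Ythdf1 knockout, beside all-gene medians of -0.10 and -0.12. A fit to the compared groups alone called 1756 genes and 1 mitotic gene in the Usp5 knockout. The length trend over all genes was -0.10 (Ythdf1 knockout) and 0.0017 (Usp5 over Ythdf1 knockout) with no filter, and -0.37 and 0.32 with the stricter filter of 5 CPM in 3 samples. Length correction gave a Ythdf1 knockout median of -0.39 and trends of 0.0045 and -0.0201; the replicate block with length correction gave -0.38, -2e-04 and -0.0157. GC and length correction gave 9 called in the Usp5 knockout, medians of 0.0746 (Usp5 knockout), -0.20 (Ythdf1 knockout) and 0.33 (between knockouts), and trends of 0.0028 and -0.0218. Under it Kif4 and Smc4 reversed, to 0.0575 and 0.0537 in the Ythdf1 knockout and -0.0043 and -0.25 between knockouts; the cause was not tested. With the replicate block, 4, 35 and 35 mitotic genes were called in the 3 comparisons, of which 4, 2 and 34 were higher. Of all 13661 tested genes that fit called 2346, 6198 and 6458. Between groups, deviations of same-numbered samples correlated between -0.257 and 0.298, and those of other-numbered samples between -0.333 and 0.345. The medians were 0.088 and -0.022. The numbers were taken as names only.

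With each library left out in turn, the Usp5 knockout gave 1494 to 4371 called genes, 1 to 11 mitotic genes called and medians of -0.0054 to 0.10. The counts were lowest without control replicate 2 for all genes and without Usp5 knockout replicate 2 for mitotic genes, and highest without control replicate 3. The Ythdf1 knockout gave 4848 to 6479 genes, 30 to 35 mitotic genes and medians of -0.55 to -0.37. The direct comparison gave 5002 to 7648 genes, 31 to 39 mitotic genes and medians of 0.49 to 0.59. DESeq2 called 6, 36 and 35 mitotic genes, of which 5, 3 and 35 were higher, beside 3413, 6641 and 6911 of all 13661 tested genes. With limma-voom 5, 33 and 34 were called, of which 5, 2 and 34 were higher, beside 2826, 6401 and 6529 of all tested genes.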
